A study of Mus musculus with 6 samples.

Results

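The inflammatory and apoptotic caspases described here are 7 genes of the 35976 listed in each count table, taken by symbol: the inflammatory caspases Casp1, Casp4 and Casp12, the initiator caspases Casp2, Casp8 and Casp9, and the executioner caspase Casp6. They were measured by bulk RNA-seq of cultured dorsal root ganglion (DRG) neurons from adult male and female wildtype C57BL/6 mice aged 2 to 3 months. Lumbar ganglia were dissociated and plated on poly-D-lysine and laminin in serum medium with growth factors, GDNF among them, for 24 h, and the cultures then received vehicle (3 cultures) or 15 µg/mL HC-HA/PTX3 (3 cultures) for another 24 h. HC-HA/PTX3 is a complex of hyaluronan, the heavy chain of inter-alpha-inhibitor and pentraxin 3 purified from human amniotic membrane. Each library is a culture of a numbered replicate, and the sources used here do not say which animals or how many went into a culture. Depth was 42516054, 42617496 and 54117547 counts for vehicle replicates 1, 2 and 3, and 37998071, 37434266 and 38420247 counts for the treated replicates.

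Caspases are cysteine proteases made as inactive precursors that cut their substrates after aspartate. Inflammatory caspases are switched on by inflammasomes or by bacterial lipopolysaccharide and open the cell membrane through gasdermin D, and caspase-1 also matures interleukin-1 beta and interleukin-18, cytokines that sensitize nociceptive neurons. Initiator caspases read out death receptors, mitochondrial cytochrome c release or DNA damage and pass the signal to executioner caspases, which dismantle the cell and, in sensory neurons, also take part in axon degeneration.

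Casp1 transcripts rose in the treated cultures in each same-numbered pair, while the neighbouring Casp4 and Casp12 genes and the apoptotic Casp2, Casp8, Casp9 and Casp6 did not pass the test. A gene was called where edgeR's quasi-likelihood test, fitted over 18277 genes with the replicate number as a block, gave a Benjamini-Hochberg adjusted p under 0.05 with a log2 fold change beyond 0.5 in size. By that rule 1 of the 7 caspases was called, in the higher direction, against a background of 3.32% of all tested genes called higher, 5.38% called lower and 8.7% called in either direction. The adjusted p alone was also passed by 1 of the 7, against 19.2% of all tested genes in either direction and 7.67% in the higher direction. All 7 passed the filter on low counts. With the replicate number left out of the model, 0 genes of the 18277 were called by edgeR, the caspases included, and 2089 (11.4%) had an unadjusted p under 0.05.

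The 3 inflammatory caspase genes lie side by side on the plus strand of chromosome 9 within 74.5 kb (chr9:5298517-5373032, mm10, GENCODE M21), in the order Casp1, Casp4, Casp12 with no other annotated gene between them. Casp1 spans chr9:5298517-5307265, Casp4 chr9:5308828-5336783 and Casp12 chr9:5345430-5373032. Their upstream sequences are shown as a description only, and any link between them and the levels was not tested. Each is the plus strand, 5′ to 3′, of the 250 bases before the transcript start in the RefSeq promoter table (GRCm38.p6, the mm10 build), at chr9:5298267-5298516 for Casp1, chr9:5308599-5308848 for the outer of 2 Casp4 starts and chr9:5345226-5345475 for Casp12, with motif matches in capitals.
Casp1: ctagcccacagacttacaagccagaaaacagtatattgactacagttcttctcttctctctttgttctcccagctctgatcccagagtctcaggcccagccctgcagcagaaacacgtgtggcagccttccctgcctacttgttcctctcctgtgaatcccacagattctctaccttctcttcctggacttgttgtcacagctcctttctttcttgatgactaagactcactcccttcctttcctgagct
Casp4: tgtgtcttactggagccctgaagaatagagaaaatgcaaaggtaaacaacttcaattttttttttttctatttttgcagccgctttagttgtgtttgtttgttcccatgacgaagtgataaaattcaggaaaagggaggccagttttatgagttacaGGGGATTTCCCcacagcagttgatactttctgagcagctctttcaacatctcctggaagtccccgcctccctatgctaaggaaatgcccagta
Casp12: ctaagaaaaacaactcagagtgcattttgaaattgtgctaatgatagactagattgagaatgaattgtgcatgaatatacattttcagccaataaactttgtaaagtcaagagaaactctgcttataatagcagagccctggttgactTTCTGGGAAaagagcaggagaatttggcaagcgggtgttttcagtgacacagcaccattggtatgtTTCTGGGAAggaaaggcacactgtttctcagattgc
The search covered both strands for 5 motifs: an ISRE-like element (GAAA-NN-GAAA), a GAS element (TTCNNNGAA), AP-1 (TGANTCA), NF-kB and the p53 half-site. No match to the 5 motifs was found in the Casp1 window. The Casp4 window held 2 NF-kB matches that overlap each other, and the Casp12 window held 2 separate GAS matches. GENCODE M21 places the starts of Casp4 and Casp12 a little farther upstream than RefSeq, inside these windows, so that the GAS match nearer the end of the Casp12 window falls past the GENCODE start. For Casp8 the difference is much larger: the RefSeq window is chr1:58802252-58802501, while the GENCODE gene starts upstream of it at 58795374, so that the Casp8 search did not cover the GENCODE start. Of 32851 mouse windows of the same length, 2.98% held an ISRE-like match, 7.02% a GAS match, 6.75% an AP-1 match, 3.9% an NF-kB match and 7.13% a p53 half-site. The table held windows for all 7 caspases and for Casp14, and those of Casp2, Casp6, Casp8, Casp9 and Casp14 held no match to the 5 motifs. A match describes letters only; binding was not measured.

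Casp1 encodes caspase-1, the protease of the canonical inflammasome. Its level, given like those of all genes below in CPM (the usual unit of counts scaled to library size, here after TMM normalization, in which 1 CPM is 37.1 to 56.0 counts in a library), was 8.79, 12.4 and 7.88 CPM in vehicle replicates 1, 2 and 3, and 15.3, 18.9 and 14.4 CPM in the treated replicates. Each treated culture lay above each vehicle culture, and replicate 2 was the highest culture of both groups. The means were 9.69 ± 2.40 CPM (SD, n = 3) in vehicle and 16.2 ± 2.41 CPM (SD, n = 3) in treated cultures. The log2 fold change was 0.76 with a standard error of 0.11, a 1.69-fold higher level (edgeR adjusted p = 0.00156), and the log2 ratios within the pairs were 0.80, 0.61 and 0.87. Groups that did not overlap, with treated cultures higher, were found for 1 of the 7 caspases and for 9.44% of all tested genes; 8.57% did not overlap with treated cultures lower, and 18% in either direction. Leaving out any pair kept the call, with log2 fold changes of 0.72 to 0.83 and edgeR adjusted p values of 0.00101 to 0.0180. Without the replicate block the log2 fold change was 0.74 and the edgeR adjusted p = 0.296, which ended the call. In these bulk libraries more cells that express Casp1 and more Casp1 RNA in each cell cannot be told apart, nor can fewer cells and less RNA for a lower gene.

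Casp4 encodes the mouse caspase also known as caspase-11, the sensor of cytosolic lipopolysaccharide in the non-canonical inflammasome. Its level was 4.52, 4.98 and 3.14 CPM in vehicle replicates 1 to 3 and 4.15, 4.99 and 2.31 CPM in the treated ones. The groups overlapped, replicate 3 was the lowest culture in both, and pair 2 held nearly equal levels. Casp4 did not pass the test (log2 fold change −0.18, standard error 0.16, edgeR adjusted p = 0.463). Casp4 had the fewest counts of the 7 in a culture, with 91 in treated replicate 3.

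Casp12 encodes caspase-12, grouped with the inflammatory caspases by sequence and position and described in connection with the endoplasmic reticulum. Its level was 19.3, 15.0 and 4.82 CPM in vehicle replicates and 21.6, 12.2 and 3.78 CPM in treated replicates. The difference between replicates was far larger than that between treatments: replicate 3 was low in both groups, and pair 1 was higher with treatment while pairs 2 and 3 were lower. The mean of replicates 1 and 2 was 3.55-fold that of replicate 3 in vehicle and 4.46-fold in treated cultures. With the block, Casp12 had a log2 fold change of −0.14 and a standard error of 0.13 (edgeR adjusted p = 0.472). Among the marker lists, the sums that were also over 2-fold lower in replicate 3 of both groups were those of satellite glia (3.0-fold in vehicle and 2.81-fold in treated cultures), fibroblasts (2.40-fold and 4.18-fold) and dividing cells (2.79-fold and 6.57-fold). Their part in the Casp12 result was not tested.

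**Figure D1:**
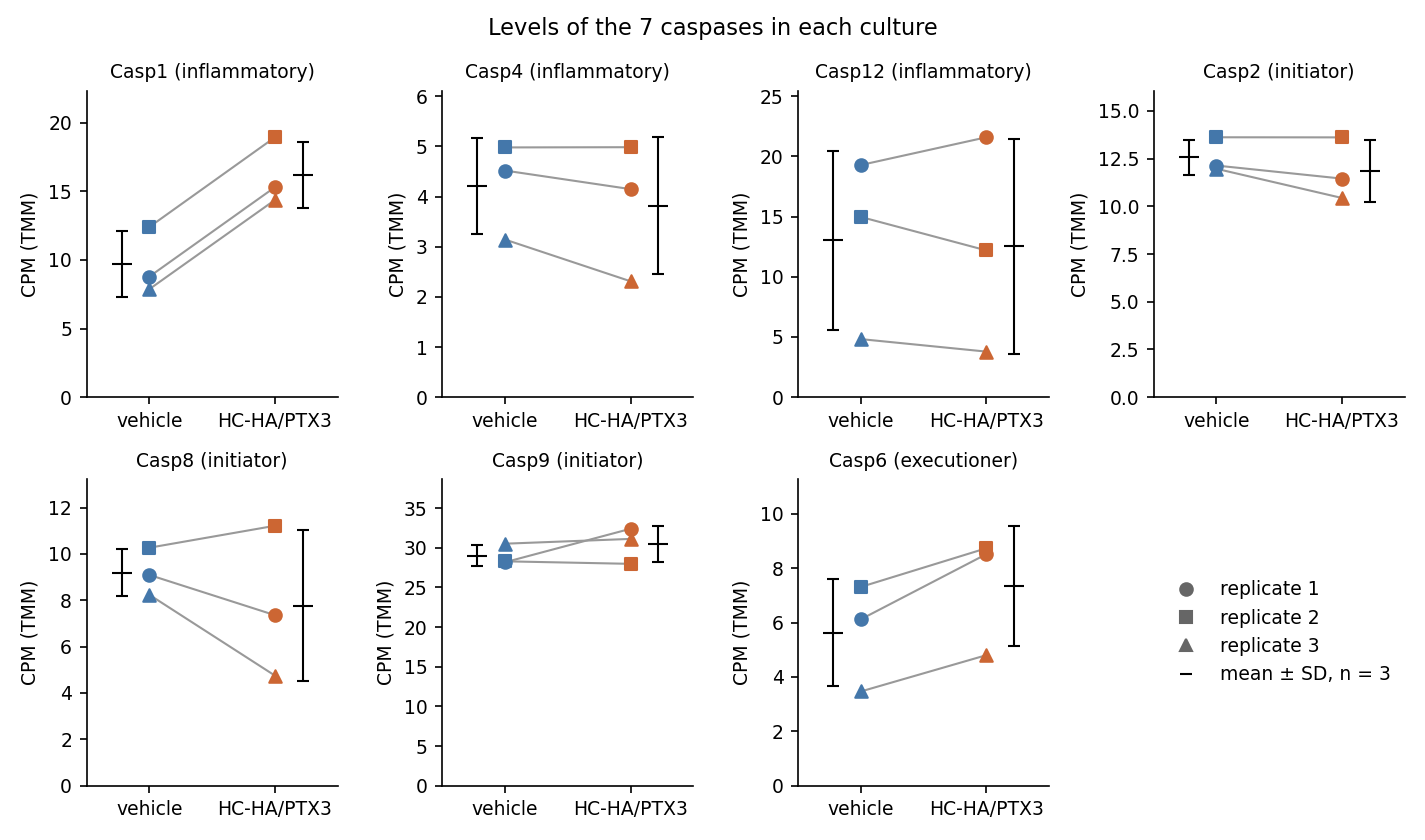
Level of each of the 7 caspases in each culture, in CPM after TMM scaling, with vehicle cultures in blue, HC-HA/PTX3 cultures in orange, grey lines joining same-numbered replicates, and black bars for mean ± SD (n = 3). Casp1 is the gene whose groups do not overlap (7.88 to 12.4 CPM against 14.4 to 18.9 CPM), and replicate 3 is low for Casp12 in both groups.

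Because the genes share each library, their counts can also be set against each other without any scaling. Of the counts that fell on Casp1, Casp4 and Casp12 together, Casp1 took 27.0% in vehicle replicate 1 (exact Clopper-Pearson 95% interval 24.6 to 29.5%), 38.3% in replicate 2 (35.8 to 41.0%) and 49.7% in replicate 3 (46.4 to 53.1%). In the treated cultures Casp1 took 37.3% (34.9 to 39.8%), 52.4% (49.8 to 55.1%) and 70.2% (66.9 to 73.4%). The share was higher with treatment in each pair, but the groups overlapped, and Casp12 was low in replicate 3 of both. The intervals cover counting error only.

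The ratio of Casp1 to Casp4 counts, which leaves Casp12 out, was 1.94, 2.49 and 2.51 in vehicle and 3.69, 3.80 and 6.22 in treated replicates. These ratios did not overlap between the groups, as was also so for the ratios of Casp1 to Casp2, Casp8 and Casp9. For each of these 4 ratios the two-sided exact permutation p was 0.1, the smallest that 3 against 3 cultures allow, or 0.133 after Benjamini-Hochberg adjustment over the 8 ratios computed. That test ignored the pairing of same-numbered cultures, so differences between replicates raise its p. The 8 ratios share the Casp1 counts and are not independent. The ratios to Casp12 (exact permutation p = 0.5) and to Casp6 (exact permutation p = 0.3) overlapped between groups, although both were higher with treatment in 3 of 3 pairs. The ratio of Casp1 to Casp6 moved least, by a mean log2 difference of 0.36 (SD 0.04 over the 3 pairs).

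**Figure D2:**
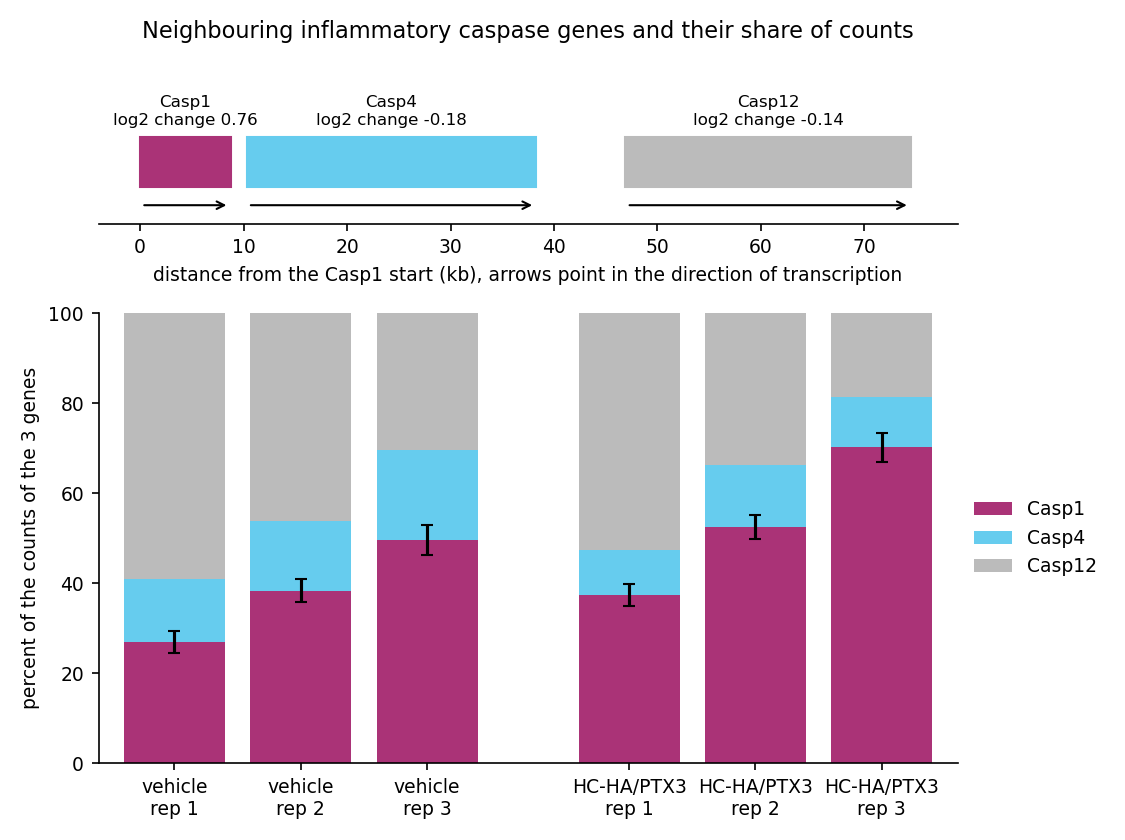
Top, the 3 neighbouring inflammatory caspase genes to scale, in kb from the Casp1 start, with their log2 fold changes (HC-HA/PTX3 against vehicle). Bottom, the percent of the summed counts of the 3 genes that fell on each of them in each culture; the black bars are 95% Clopper-Pearson intervals of the Casp1 share, which is higher in the treated culture of each pair (27.0 against 37.3%, 38.3 against 52.4% and 49.7 against 70.2%).

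Casp2, Casp8 and Casp9 are the initiator caspases. Casp2 encodes the caspase of the PIDDosome, a complex formed on DNA damage or extra centrosomes, and lies at chr6:42264985-42282508. Its level was 12.1, 13.6 and 12.0 CPM in vehicle and 11.5, 13.6 and 10.4 CPM in treated replicates. The groups overlapped and no culture stood far from the rest. For Casp2 the log2 fold change was −0.09 with a standard error of 0.10 (edgeR adjusted p = 0.576).

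Casp8, at chr1:58795374-58847503, encodes the caspase recruited by death receptors, which also holds back necroptosis. Its level was 9.09, 10.3 and 8.23 CPM in vehicle and 7.36, 11.2 and 4.75 CPM in treated replicates. Vehicle cultures lay close together, whereas the treated cultures spread on both sides of them, with replicate 3 the lowest. Casp8 had a log2 fold change of −0.31 with a standard error of 0.16 (edgeR adjusted p = 0.216), and the pair ratios ran from −0.79 to 0.13 on the log2 scale.

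Casp9, at chr4:141793612-141815976, encodes the caspase that the apoptosome activates once cytochrome c has left the mitochondria. Its level was 28.2, 28.3 and 30.5 CPM in vehicle and 32.4, 28.0 and 31.1 CPM in treated replicates. All 6 cultures lay close together and the groups overlapped. The log2 fold change was 0.07 with a standard error of 0.08 (edgeR adjusted p = 0.592). The Casp9 locus overlaps Cela2a and Ctrc on the opposite strand, and the strand setting of the counting is not given in the sources used here, but these genes had 0 to 4 and 0 to 1 counts in a culture.

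Casp6, at chr3:129901425-129914103, encodes an executioner caspase known for its part in axon degeneration. Its level was 6.12, 7.31 and 3.46 CPM in vehicle and 8.51, 8.73 and 4.80 CPM in treated replicates. Each treated culture was above its own vehicle culture, by log2 ratios of 0.48, 0.26 and 0.47, yet the groups overlapped because replicate 3 was low in both. The log2 fold change was 0.40 with a standard error of 0.13, and with an edgeR adjusted p = 0.0541 it missed both thresholds. Casp6 passed the adjusted p, but not the fold threshold, with upper-quartile scaling (0.0437) and with ComBat-seq followed by limma (0.00442), over a range of 0.00442 to 0.740 among the alternatives with all 6 cultures. Next to Casp1, Casp6 had the highest fold change of the 7.

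**Figure D3:**
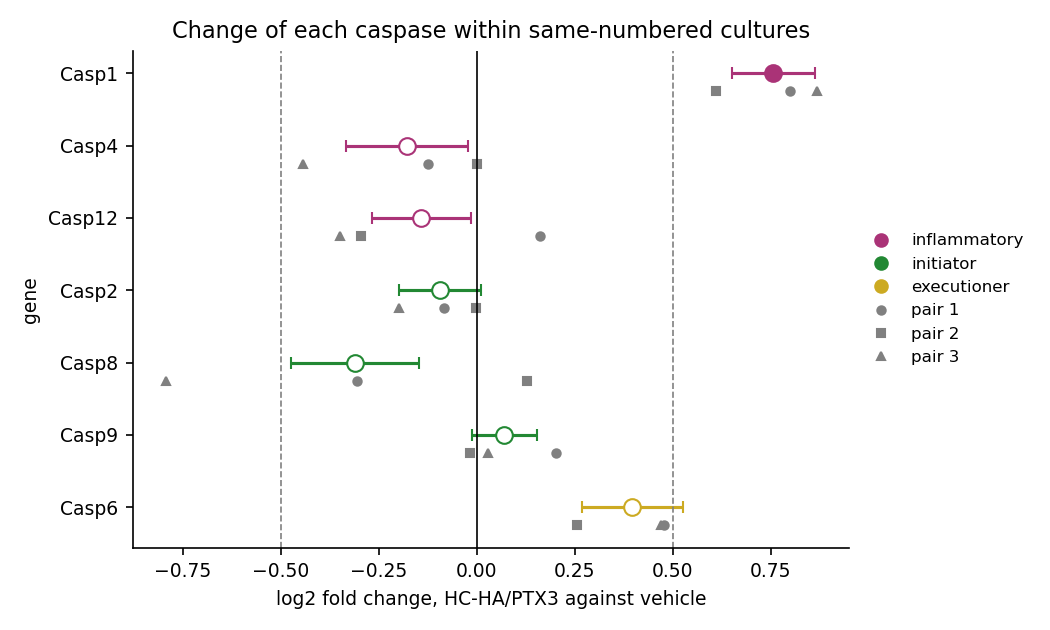
Log2 fold change of each caspase (HC-HA/PTX3 against vehicle) from the edgeR model with the replicate block, with bars for the standard error, filled circles for called genes, and small grey symbols for the log2 ratio within each replicate pair. Dashed lines mark log2 fold changes of −0.5 and 0.5; Casp1 (0.76) is the called gene, and Casp6 (0.40) comes next.

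Set side by side by class, the inflammatory caspases had a median log2 fold change of −0.14 (range −0.18 to 0.76, 1 of 3 called) and the initiator and executioner caspases of −0.01 (range −0.31 to 0.40, 0 of 4 called). The median was −0.09 over the 7 genes and −0.01 over all 18277 genes tested. Within the inflammatory class Casp1 was called and Casp4 and Casp12 were not, and the class median did not lie above that of the apoptotic class. That order turned without the block when vehicle replicate 1 (0.34 against −0.034) or vehicle replicate 2 (0.053 against 0.010) was left out. It also turned there without treated replicate 2 (−0.036 against −0.041) or treated replicate 3 (0.38 against 0.037).

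Casp14, a caspase of the epidermis that served as a gene outside the 7, had 0 counts in all 6 cultures, below a floor of 3 counts that corresponds to at most 0.0808 CPM in a library.

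Levels were compared between genes per kilobase of annotated exon, with the exons of all annotated transcripts of a gene joined. The joined length was 1497 bases from 1 transcript for Casp1, 5197 bases from 6 transcripts for Casp9 and 7057 bases from 10 transcripts for Casp2. The order below depends on these lengths. Before division by length, the vehicle mean was 29.0 CPM for Casp9 and 9.69 CPM for Casp1. Which transcripts the cultures expressed was not tested. In the vehicle cultures Casp1 was at 6.47 ± 1.60 CPM per kilobase (SD, n = 3), followed by Casp9 at 5.58 ± 0.253 and Casp12 at 3.39 ± 1.93 CPM per kilobase. Casp8 came next at 3.18 ± 0.353, then Casp2 at 1.78 ± 0.129, Casp4 at 1.14 ± 0.258 and Casp6 at 1.01 ± 0.352 CPM per kilobase. Neighbours in this order whose vehicle ranges overlapped were Casp1 and Casp9, Casp12 and Casp8, and Casp4 and Casp6. In treated cultures Casp1 stood at 10.8 ± 1.61 and Casp9 at 5.87 ± 0.438 CPM per kilobase. The order of the treated means was the same apart from Casp4 and Casp6, which changed places.

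The genes that act with the caspases were taken from 11 lists of 96 genes, of which 90 were tested. edgeR called 7 of the 90 higher and 4 lower, against backgrounds of 3.32% and 5.38% of all tested genes, and the median log2 fold change of the 90 was −0.00424 against −0.00666 over all genes. None was called without the replicate block. The 6 genes under the count filter were Nlrp1a, Il1b, Fasl, Bcl2a1a, Bcl2a1d and Birc7.

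Upstream of the inflammatory caspases, 1 of 11 tested inflammasome sensors and adaptors was called. Aim2, a sensor of cytosolic DNA, was at 1.87, 1.65 and 1.79 CPM in vehicle and 2.45, 2.56 and 2.95 CPM in treated replicates, without overlap. Its log2 fold change was 0.58 with a standard error of 0.18 (edgeR adjusted p = 0.0474), but the call was lost with DESeq2 (adjusted p = 0.166) and without any of the 3 pairs (edgeR adjusted p 0.112 to 0.160). The adaptor Pycard, which couples sensors to caspase-1, was at 0.938 ± 0.445 CPM in vehicle and 0.705 ± 0.442 CPM in treated cultures (SD, n = 3), and the sensor Nlrp3 at 0.870 ± 0.168 and 0.626 ± 0.165 CPM. Neither passed the test (edgeR adjusted p = 0.349 and 0.318). Naip and Bcl2a1 genes have near-identical copies, and their counts are uncertain for that reason.

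Of 6 tested substrates and cytokines of the inflammatory caspases, 0 were called higher and 1 lower. Il1rn, the interleukin-1 receptor antagonist, fell from 19.1, 26.7 and 10.8 CPM in vehicle to 11.9, 24.7 and 6.25 CPM in treated replicates. It was lower in each pair with overlapping groups (log2 fold change −0.51, standard error 0.13, edgeR adjusted p = 0.0245), and its fold change fell short of the threshold with upper-quartile scaling, limma-voom and ComBat-seq (−0.48, −0.45 and −0.45) and without replicate 1 or 3 (−0.42 and −0.36). Gsdmd, the pore-forming substrate, was at 2.01 ± 0.673 and 2.08 ± 0.260 CPM, and Il18 at 1.43 ± 0.739 and 1.08 ± 0.544 CPM (SD, n = 3 each). Il1b was too low to test, at 0.163 ± 0.0639 CPM in vehicle and 0.236 ± 0.0512 CPM in treated cultures.

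Of 11 interferon-linked genes known to act on caspase-4 or its sensing of bacteria, 0 were called higher and 1 was called lower. The gene called lower is not reported here by name. Over all tested genes 5.38% were called lower. The guanylate-binding protein gene Gbp3 was at 23.7 ± 17.4 CPM in vehicle and 17.5 ± 12.1 CPM in treated cultures (SD, n = 3), and Gbp7 at 39.0 ± 16.6 and 28.5 ± 9.54 CPM (SD, n = 3). Both passed the adjusted p alone, with log2 fold changes of −0.43 and −0.41 (edgeR adjusted p = 0.0125 and 0.0105), but missed the fold threshold. The list median was −0.17.

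In the mitochondrial route to caspase-9, 2 of 11 pro-apoptotic BCL2 family genes were called higher and 1 lower, with a list median log2 fold change of 0.29. Bax, which permeabilizes the mitochondrial outer membrane, was at 31.5, 41.2 and 45.5 CPM in vehicle and 54.6, 57.3 and 60.3 CPM in treated replicates, without overlap (log2 fold change 0.56, standard error 0.09, edgeR adjusted p = 0.00243; 0.44 without replicate 1, under the fold threshold). Bbc3, which encodes the BH3-only protein PUMA, was at 4.67, 5.38 and 9.68 CPM in vehicle and 13.2, 8.73 and 18.8 CPM in treated replicates. Bbc3 was higher in each pair, with an overlap between treated replicate 2 and vehicle replicate 3 (log2 fold change 1.05, standard error 0.15, edgeR adjusted p = 0.00169). Bok fell from 6.44 ± 1.01 to 4.46 ± 1.25 CPM (SD, n = 3; log2 fold change −0.55, edgeR adjusted p = 0.0391), a call lost with upper-quartile scaling (adjusted p = 0.0501), with DESeq2 (0.0505) and without any of the 3 pairs (0.0786 to 0.224).

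Apaf1, the scaffold of the apoptosome that activates caspase-9, was at 26.4, 31.7 and 24.3 CPM in vehicle and 41.8, 34.6 and 47.5 CPM in treated replicates. The groups did not overlap, and Apaf1 was the member called among 6 apoptosome and mitochondrial genes (log2 fold change 0.59, standard error 0.13, edgeR adjusted p = 0.0125). That call was lost without replicate 1 (edgeR adjusted p = 0.0646) and without replicate 3 (log2 fold change 0.41). Of 5 tested anti-apoptotic BCL2 genes 0 were called, and the most abundant per kilobase, Mcl1, Bcl2l1 and Bcl2l2, had log2 fold changes of 0.08, 0.05 and −0.00258. Of 5 tested genes of the IAP family, inhibitors of caspases, 1 was called. Birc5, which encodes survivin and is also a gene of dividing cells, was at 21.4, 15.3 and 8.98 CPM in vehicle and 8.46, 11.0 and 3.33 CPM in treated replicates. Birc5 was lower in each pair with overlapping groups (log2 fold change −1.06, standard error 0.17, edgeR adjusted p = 0.00293), and the 4 markers of dividing cells fell with it.

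Around caspase-8, 1 of 15 tested death receptor and necroptosis genes was called. Tnfrsf10b, the mouse TRAIL receptor, was at 5.19, 9.92 and 14.0 CPM in vehicle and 10.7, 12.6 and 21.4 CPM in treated replicates. It was higher in each pair although the groups overlapped (log2 fold change 0.65, standard error 0.13, edgeR adjusted p = 0.00847), and was not called without replicate 1 (0.49, edgeR adjusted p = 0.0604). Cflar, the caspase-8 inhibitor, was at 117 ± 7.26 and 126 ± 9.91 CPM (SD, n = 3; log2 fold change 0.10, edgeR adjusted p = 0.271). Around caspase-2, Pidd1, the core of the PIDDosome, was higher at 10.7 ± 3.73 against 7.16 ± 1.57 CPM (SD, n = 3; log2 fold change 0.56, edgeR adjusted p = 0.0229). The Pidd1 call was lost without replicate 1 (edgeR adjusted p = 0.125) and without replicate 3 (0.0964), and its partner Cradd had a log2 fold change of 0.01. Of 9 endoplasmic reticulum stress genes 0 were called, and the most abundant per kilobase, Hspa5, Atf4 and Xbp1, had log2 fold changes of −0.16, 0.08 and 0.05.

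Downstream of the executioner caspases, 1 of 9 genes on a list of substrates and a substrate's partner was called. The called gene, Dffb, is that partner and not itself a substrate. Dffb encodes the nuclease that cuts DNA between nucleosomes in apoptosis, and was at 2.42, 3.14 and 3.02 CPM in vehicle and 5.71, 6.38 and 6.17 CPM in treated replicates. Each treated culture held more Dffb than each vehicle culture (log2 fold change 1.09, standard error 0.14, edgeR adjusted p = 0.00118). Dffa, the inhibitor that holds this nuclease inactive until caspases cut it, was at 90.3 ± 13.0 and 94.9 ± 20.7 CPM (SD, n = 3; log2 fold change 0.06, edgeR adjusted p = 0.594).

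**Figure D4:**
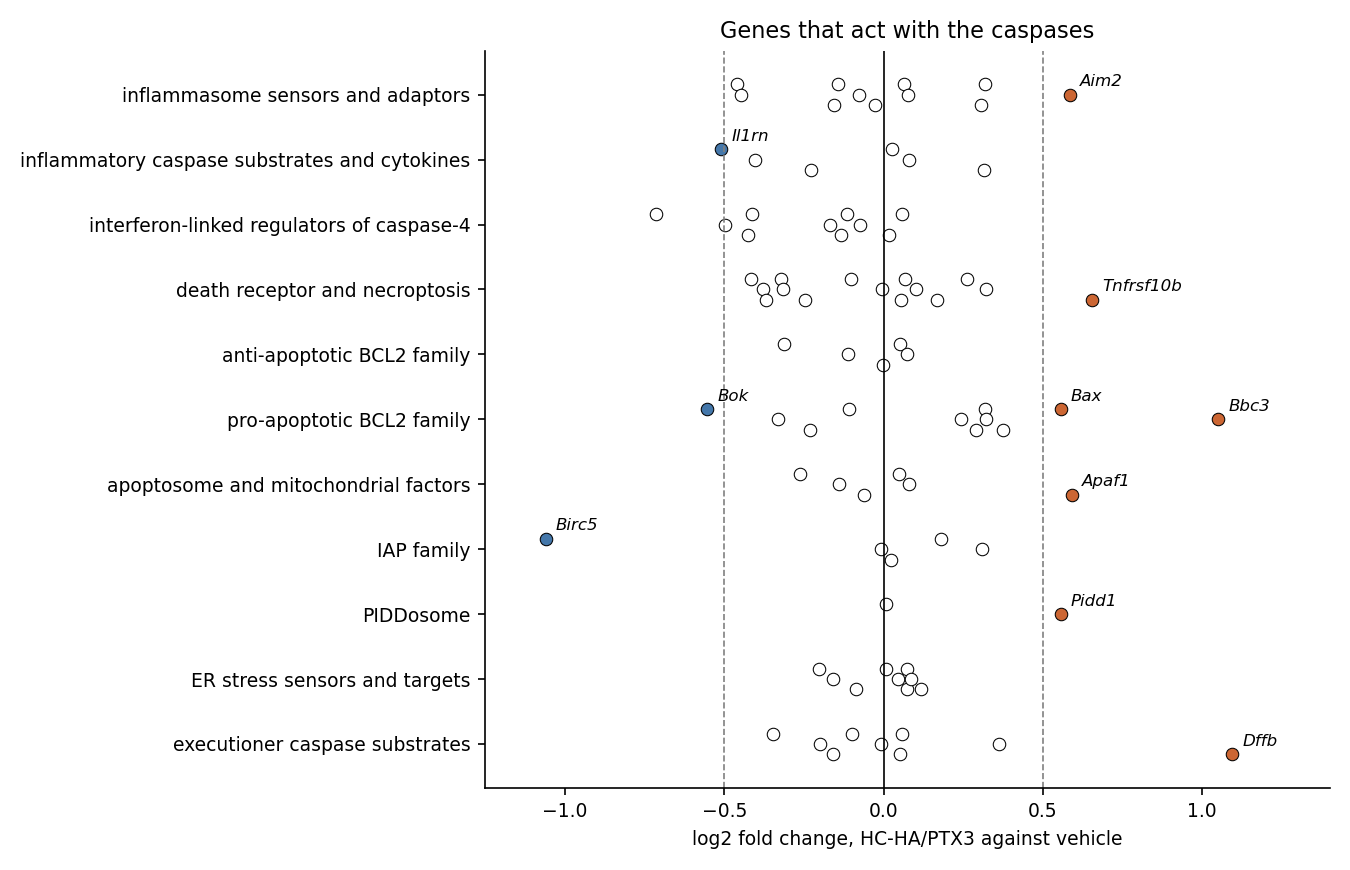
Log2 fold change (HC-HA/PTX3 against vehicle) of tested genes that act with the caspases, by list, with orange circles for genes called higher, blue for genes called lower and white for the rest. Circles are offset vertically for legibility, dashed lines mark −0.5 and 0.5, and the highest fold changes are those of Dffb (1.09) and Bbc3 (1.05). The list of executioner caspase substrates also holds Dffb, a nuclease whose inhibitor Dffa is the substrate.

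The cells in the cultures were followed by marker lists. Beside the counts of called markers below, 3.32% of all tested genes were called higher and 5.38% lower. The summed level of the 8 neuron markers was 6324, 5716 and 6305 CPM in vehicle and 6828, 6216 and 7043 CPM in treated replicates, with Tubb3 the most abundant, 0 of 8 called and none at 0. The summed level of the 15 macrophage markers was 111, 145 and 122 CPM in vehicle and 102, 145 and 89.4 CPM in treated replicates, with Lyz2 the most abundant and none at 0. The macrophage sum was not higher with treatment in any pair, and of its 15 markers 0 were called higher and 4 lower (C1qa, C1qb, Cd163 and Tyrobp). Cd163 was low, at 0.761 ± 0.168 CPM in vehicle and 0.202 ± 0.170 CPM in treated cultures (SD, n = 3). The markers did not move as one: 3 of the 15 had log2 fold changes above 0, with Mrc1 the highest (0.34), and Cd68 was at −0.01. Macrophages are a known source of Casp1 transcripts in tissues, and their part in the Casp1 result was not tested beyond these values.

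The 6 neutrophil markers summed to 6.77, 11.2 and 6.80 CPM in vehicle and 3.72, 6.94 and 7.01 CPM in treated replicates, with S100a9 the most abundant and Mpo and Elane called lower among 5 tested. The 5 lymphocyte markers summed to 0.475 to 0.838 CPM in a culture, with Cd79a the most abundant and Cd3g at 0 in all 6. Lymphocyte markers were near the limit of detection in all cultures. The 7 satellite glia markers summed to 1814, 1114 and 488 CPM in vehicle and 1693, 1159 and 507 CPM in treated replicates, with Apoe the most abundant, 0 called and none at 0. Like Casp12 and the fibroblast and dividing cell markers, they were low in replicate 3 of both groups.

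The 6 fibroblast markers summed to 2138, 2152 and 895 CPM in vehicle and 1151, 1382 and 303 CPM in treated replicates, with Col3a1 the most abundant, none at 0 and 3 of 6 called lower (Col1a1, Col1a2 and Col3a1). The 4 markers of dividing cells, led by Mki67, summed to 623, 423 and 187 CPM in vehicle and 206, 209 and 31.6 CPM in treated replicates, none was at 0 and all 4 were called lower. Both sums were lower in each treated culture than in its own vehicle culture. The 6 Schwann cell markers, led by Pmp22, summed to 945, 682 and 555 CPM in vehicle and 834, 576 and 535 CPM in treated replicates. The 6 endothelial markers, led by Cdh5, summed to 250, 267 and 303 CPM in vehicle and 256, 303 and 276 CPM in treated replicates with 0 called, and the 4 mural markers, led by Rgs5, to 272, 287 and 238 CPM and 252, 287 and 163 CPM with Acta2 called lower. None of these markers was at 0. The cultures therefore held other cells beside neurons, and the part of these markers in the caspase and pathway results was not tested.

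**Figure D5:**
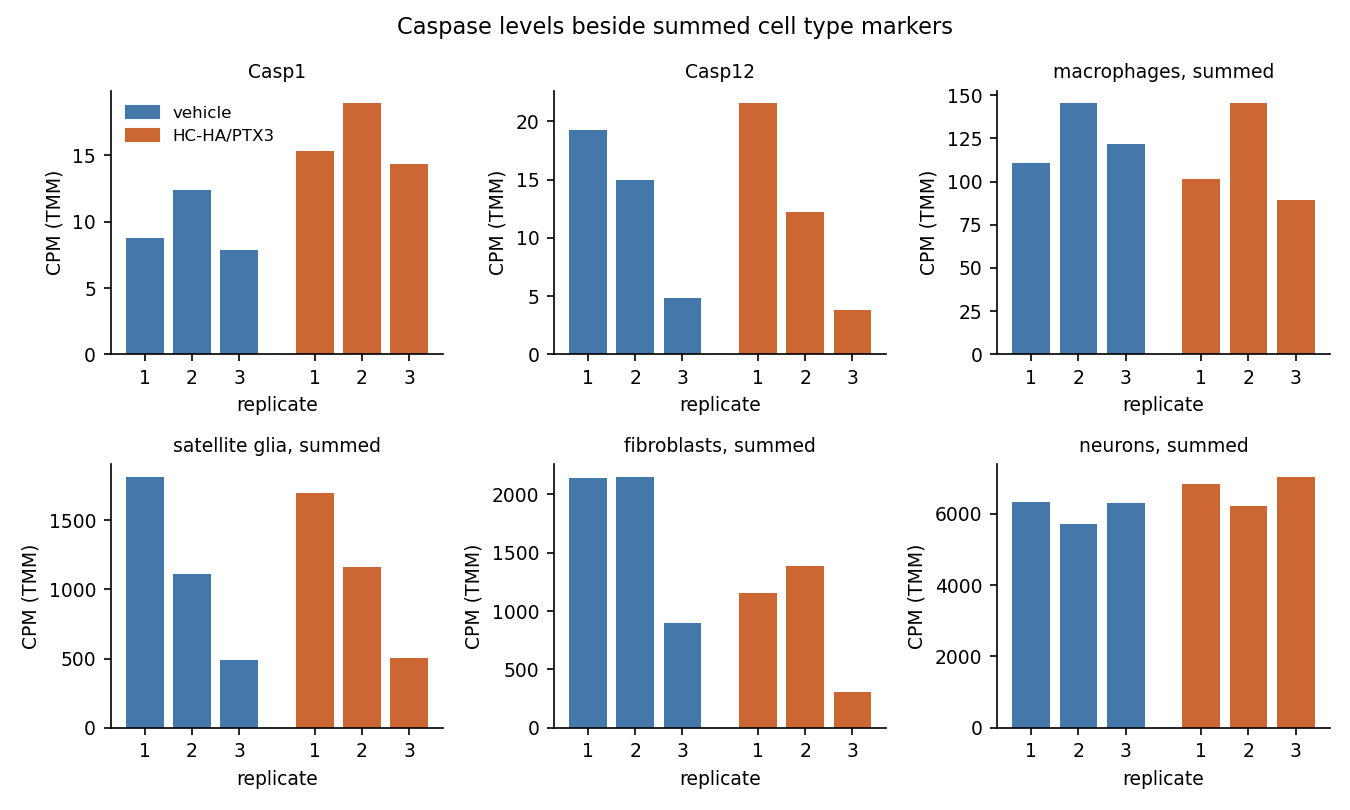
Casp1 and Casp12 levels beside the summed levels of macrophage, satellite glia, fibroblast and neuron markers in each culture, in CPM after TMM scaling, as bars from 0 with vehicle in blue and HC-HA/PTX3 in orange. Casp1 is higher in each treated culture while the macrophage sum is not (111, 145 and 122 against 102, 145 and 89.4 CPM), and Casp12, the satellite glia sum and the fibroblast sum are all low in replicate 3 of both groups.

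The genes with the most similar pattern over the 6 cultures were chosen from 13567 genes by the root mean square difference in centred log2 CPM. For Casp1 these were BC065397 (0.126) and 2610306M01Rik (0.129), against a median of 0.492 over all candidates. For Casp12, whose pattern was set by the replicates, they were Ntn5 (0.0684) and Acss1 (0.0784), for Casp4 Phldb1 and Slc12a4, and for Casp6 Sfrp4 and Gm5820. Casp8 was most like Eva1b and Myh11, Casp2 most like Nup107 and Trim8, and Casp9 most like Large and Mtmr9. With so many candidates and 6 cultures, such likeness is a description only.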

How the data were processed

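Ribosome-depleted total RNA was sequenced by the authors in paired-end mode and aligned to mm10, with HISAT2 by the study's methods and RNA STAR per the file headers, and the deposited values are raw counts per gene from featureCounts; the authors filtered out ribosomal RNA reads. The strand setting is not given in the sources used here. The counts were analysed in R 4.3.3 with edgeR 4.0.16 (filterByExpr, TMM scaling, quasi-likelihood test, model of replicate number and treatment, Benjamini-Hochberg adjustment over 18277 genes, prior count 2); the thresholds follow the study. Its methods used a batch term, and same-numbered cultures deviated from their group means together (correlations over 18277 genes of 0.631, 0.536 and 0.774, against −0.613 to 0.148 for different numbers), so the number was kept as a block. No pair of replicates agreed within sampling noise (chi-square per degree of freedom 31.4 to 108).

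A CPM corresponds to 37.1 to 56.0 counts. Intervals and floors cover counting error only. Whether same-group cultures came from separate animals is not stated, so that p-values measure the spread between these cultures. Exon lengths and positions came from GENCODE M21 (mm10), in which 26763 of 35976 symbols (74.4%) matched; promoters came from RefSeq GRCm38.p6. Alternatives used DESeq2 1.42.0, limma 3.58.1 and sva 3.50.0. The named genes were the caspases, every called member of each pathway list or else its 3 most abundant members per kilobase, the most abundant and the called markers, and the 2 genes of most similar pattern among those averaging 1 log2 CPM or more; a few other pathway genes (Pycard, Nlrp3, Gsdmd, Il18, Il1b, Gbp3, Gbp7, Cflar, Cradd and Dffa) were added after their values were seen. The caspases and gene lists were chosen with earlier results of these data known. Some genes of these lists are not reported here, by name or in the figures, although the counts over lists include them.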

Additional observations from a re-analysis of the deposited data

How the results depend on the processing

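Casp1 kept its direction in all alternatives run and its call in each one with the replicate block or ComBat-seq, where it was also the 1 listed caspase called; edgeR adjusted p values over the alternatives with all 6 cultures ran from 1.36e-07 to 0.296. Without the replicate block (pairing ignored), the Casp1 log2 fold change was 0.74 (edgeR adjusted p = 0.296), and 0 listed caspases, 0 genes in all, and 0 pathway genes higher or lower were called, with 2089 genes at an unadjusted p under 0.05; other tools were run with the replicate number taken into account only. The block changed no other caspase call among the 7. With the block and any pair left out, 1 listed caspase, 878 to 1571 genes, 3 to 6 pathway genes higher and 2 to 4 lower were called; the counts of 878 genes and 3 higher pathway genes came without replicate 1, and 2 lower ones without replicate 1 or 3.

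Without the block and with any single culture left out, the log2 fold change ran from 0.61 to 0.96 for Casp1 (0.68, 0.79 and 0.83 without vehicle replicate 1, treated replicate 1 and treated replicate 3), −0.39 to 0.12 for Casp4, −0.69 to 0.38 for Casp12 and −0.61 to 0.018 for Casp8, and the inflammatory median from −0.32 to 0.38, with 0 genes called by edgeR. Casp4 (0.12) and Casp8 (0.018) changed sign without treated replicate 3, and Casp12 without treated replicate 3 (0.38), vehicle replicate 1 (0.34, also then the inflammatory median) or vehicle replicate 2 (0.053, likewise); none of these was called, and fewer cultures were used. With the adjusted p alone, 3505 genes and 10 lower pathway genes were called, the fold threshold being dropped. Upper-quartile scaling gave 2 lower pathway genes, because Bok (edgeR adjusted p = 0.0501) and Il1rn (log2 fold change −0.48) each missed a threshold there. Of 1591 called genes 61.8% were lower, against 55.8% with upper-quartile scaling, 69.6% with DESeq2, 52.4% with ComBat-seq and 71.8% without replicate 1. The alternatives for the pathway counts, the class medians and the named pathway genes were chosen after seeing the data. Levels with raw library sizes stayed within 1 SD. With 3 cultures a group, a small change of a low gene such as Casp4 may not be detectable.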
